A study of Drosophila melanogaster with 120 samples.

Results

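The transcripts described here were higher in the head of the fruit fly Drosophila melanogaster after the first day of adult life than on it. Only those without a matching loss in the abdomen were taken. They were chosen by measured values: in each tissue the median of the 12 arrays of day 1 was subtracted from the median of the 48 arrays of days 5, 15, 30 and 50, and a transcript was taken when this difference was at least 1 on the log2 scale, which is 2-fold, in head and above -0.5 in abdomen. Of the 16637 transcripts on the array, 262 met both limits. They are called the members here, and the day-1 contrast that chose them is given as a description with no test. A further 109 transcripts passed the head limit but fell to -0.5 or lower in abdomen, and 603 transcripts had a head difference of -1 or lower.

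The study compared selection populations, bred for a longer reproductive lifespan by letting flies mate first at 28 and later at 40 days of age, with control populations mated at 14 days. All flies were unmated females, frozen after 35 generations of the regimes, kept at 25 °C in a 12L:12D light cycle on cornmeal media, and descended from 1 ancestral population founded with wild-caught females. Each regime had 3 populations, and each population gave heads and abdomens on days 1, 5, 15, 30 and 50 with 2 biological replicates, which makes 6 arrays in each of 20 groups and 120 in all. Amplified RNA was read on NimbleGen arrays with the single dye Cy3, and the deposited values are log2 intensities. One array, from a day-15 head of control population 3, is labelled biological replicate 1 but carries a 3 in its title. The files identify transcripts by FlyBase transcript numbers, and none of the 262 members could be tied to 1 gene, so no gene names, sequences or marker genes of a cell type are given, and the labelled tissues could not be checked against named markers.

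A fly that has just emerged has a soft and pale cuticle that hardens and darkens, and its larval fat cells are cleared while the adult fat body takes over their work. In the head, the eyes, brain and the fat body around the brain pass from development to adult function over the same days. Transcripts gained in this period can belong to any of these tissues, and in a bulk sample a change in the number of cells of a type cannot be told apart from a change in RNA per cell.

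Some arrays stood opposite to their labelled age, and they touch every value below. The mean log2 intensity over the 262 members was 11.33 at the lowest, 11.90 at the median and 12.12 at the highest in 45 of the 48 heads of days 5 to 50, against 9.80, 9.94 and 10.19 in 8 of the 12 heads of day 1. The other 3 later heads had day-1-like means, 9.63 in a day-30 head of control population 3 (biological replicate 1), 9.88 in a day-30 head of selection population 3 (biological replicate 2) and 10.30 in a day-50 head of control population 2 (biological replicate 1). Both day-1 heads of control population 3 had 11.96 and 12.04, inside the range of the later heads. These 5 arrays are called the heads apart, and results that rest on heads are given also without them where the value moves. They were set apart after seeing the data, by values that include the members' own means. Member counts without them are therefore not independent of that choice. The 603 transcripts lost in head stood the other way in the same arrays, with means of 11.57 to 12.20 in the 3 later heads apart, against 9.73 to 10.13 in the other later heads. Both day-1 heads of control population 1 lay in between, with member means of 11.12 and 11.15. In abdomens the members' mean was 10.96, 11.34 and 11.72 at the lowest, median and highest of the 48 later arrays, against 10.74 to 11.06 in 10 day-1 arrays and 11.44 and 11.55 in both day-1 abdomens of control population 1. Array medians over all transcripts lay between 9.45 and 10.03 in heads, and those of the heads apart lay within this range, between 9.60 and 10.01. Why these arrays stood apart was not tested.

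**Figure D1:**
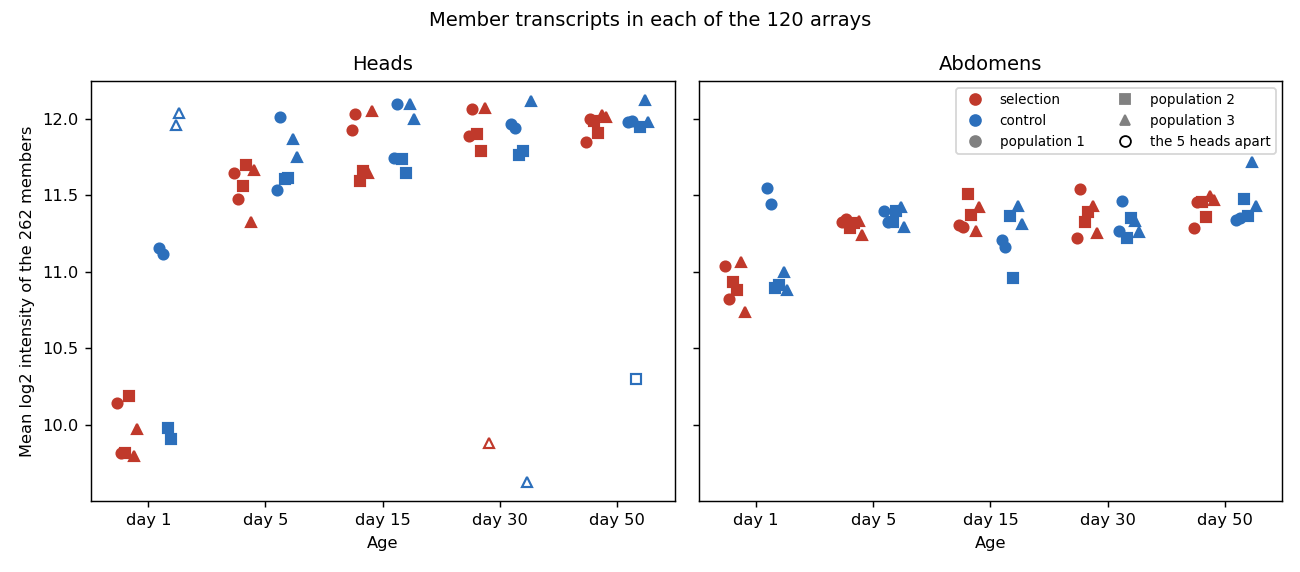
Mean log2 intensity of the 262 members in each of the 120 arrays, by age, with selection in red left of control in blue, a symbol for each population number, and open symbols for the 5 heads apart. Heads of days 5 to 50 lie between 11.33 and 12.12 except 3 open symbols at 9.63, 9.88 and 10.30, and 8 of the 12 day-1 heads lie between 9.80 and 10.19.

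Among the members the head difference had a median of 1.31 on the log2 scale and a middle range between quartiles of 1.15 to 1.84. It was at least 2 in 57 members, at least 3 in 23 and at least 4 in 9. The median member level in heads was 11.76 on days 5 to 50 and 10.03 on day 1, and in abdomens it was 11.81 on days 5 to 50 and 11.31 on day 1. Probes differ in brightness, so levels are not set against those of other transcripts. At the head limit, FBtr0075241 lay just inside with a difference of 1.0002 and FBtr0091895 just outside with 0.9954. At the abdomen limit, FBtr0086203 lay just inside with -0.4846 and FBtr0078204 just outside with -0.5059.

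The largest head difference, 6.42 on the log2 scale, belonged to FBtr0084153. Its level in the later heads was 13.45, 14.51 and 15.00 at the lowest, median and highest of 45 arrays without the heads apart, and 7.87 at the lowest with all 48. On day 1 it was 7.88, 8.03 and 8.11 in the 6 selection heads and 7.98, 13.64 and 14.91 in the 6 control heads. The 6 day-1 selection heads were therefore all below the later heads that did not stand apart, and the control heads of day 1 spanned both levels. FBtr0084153 was also gained in abdomen, by 1.27, where its mean over the 6 populations was 8.32 ± 0.62 on day 1, 9.00 ± 0.16 on day 5, 9.89 ± 0.59 on day 15, 9.76 ± 0.88 on day 30 and 9.60 ± 0.58 on day 50 (SD, n = 6 populations each).

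The next 3 members were gained in head alone. FBtr0074364 had a head difference of 6.15 and an abdomen difference of -0.07, with 12.63, 14.49 and 14.95 in the 45 later heads at the lowest, median and highest, against 7.97, 8.28 and 14.59 in the 12 day-1 heads. FBtr0080474 had a head difference of 5.96 and an abdomen difference of -0.02, with 12.36, 14.07 and 14.73 in the 45 later heads, against 7.71, 8.00 and 14.41 on day 1. FBtr0076387 had a head difference of 5.52 and an abdomen difference of 0.01, with 13.25, 14.47 and 14.98 in the 45 later heads, against 8.31, 8.92 and 14.68 on day 1. In each of these 3 the high day-1 values came from the heads of control populations 1 and 3. Their abdominal medians on days 5 to 50 were between 7.89 and 8.49.

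**Figure D2:**
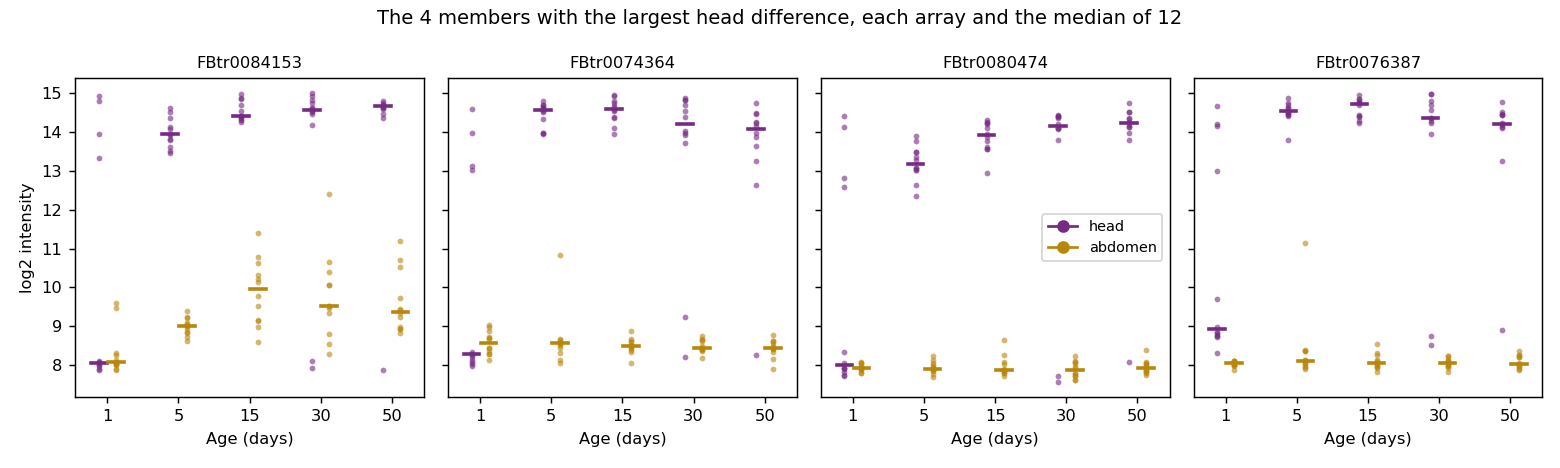
Log2 intensity by age of the 4 members with the largest head difference, each point an array and each bar the median of 12, with heads in purple left of abdomens in ochre. Head medians exceed 13 from day 5 on in all 4, while the abdominal medians of FBtr0074364, FBtr0080474 and FBtr0076387 stay under 9.

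By their abdominal difference the members fell into 3 classes. In 182 members (69.5%) the abdomen was flat, with a difference under 0.5, and their median differences were 1.31 in head and 0.04 in abdomen. In 43 (16.4%) the abdomen gained between 0.5 and 1, with medians of 1.26 in head and 0.70 in abdomen. In 37 (14.1%) both tissues gained at least 1, with medians of 1.86 in head and 1.39 in abdomen. The largest abdominal differences among the members were 4.16 in FBtr0091873 and 3.22 in FBtr0077086, whose head differences were only 1.01 and 1.42. The abdomen difference over all members had a median of 0.24 and was above 0 in 184, and over all transcripts the medians were 0.01 in head and 0.02 in abdomen.

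**Figure D3:**
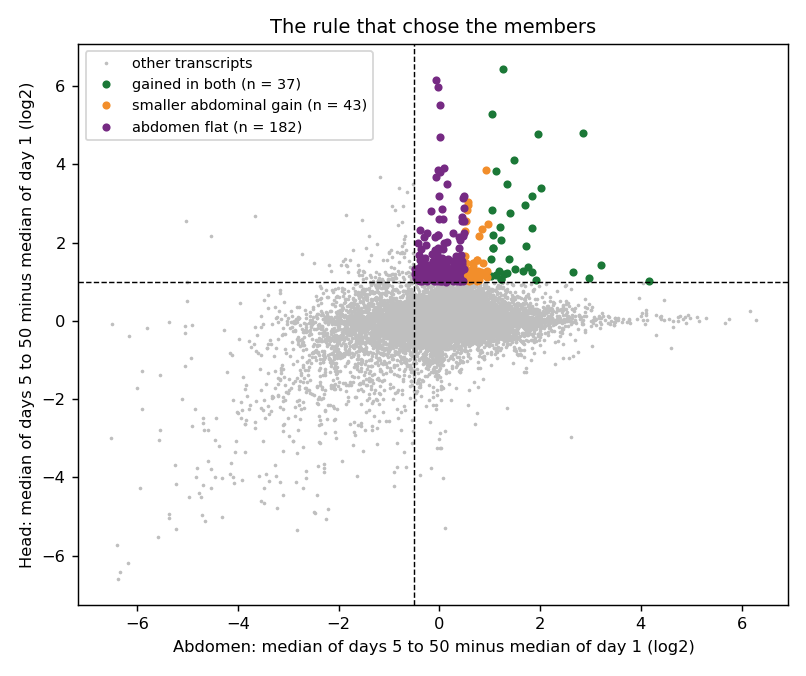
Difference between days 5 to 50 and day 1 in head against that in abdomen for all 16637 transcripts (log2), with the limits of the rule as dashed lines and the 262 members coloured by abdominal class. Members of the flat class run up to 6.15 in head, and members gained in both tissues up to 6.42 in head and 4.16 in abdomen.

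Most of the members' gain was present by day 5. The mean over the members in heads was 10.49 ± 0.88 on day 1, 11.65 ± 0.12 on day 5, 11.85 ± 0.16 on day 15, 11.57 ± 0.50 on day 30 and 11.84 ± 0.35 on day 50 (SD over 6 populations). Without the heads apart day 30 was 11.96 ± 0.13 and day 50 was 11.98 ± 0.05, so the dip on day 30 was carried by 2 arrays. The median member had reached 87.0% of its rise to its highest later day by day 5, or 84.6% without the heads apart. In abdomens the mean was 11.01 ± 0.24, 11.33 ± 0.03, 11.30 ± 0.11, 11.34 ± 0.04 and 11.43 ± 0.08 on the 5 days in order. The highest day in head was day 5 for 27 members, day 15 for 33, day 30 for 97 and day 50 for 105 without the heads apart, and 47, 113, 1 and 101 with all arrays.

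The gain was found in all 3 selection populations and in 1 of the 3 control populations in like size. As the mean of days 5 to 50 minus day 1, the median gain over the members in heads was 1.54 in selection population 1, 1.42 in selection population 2 and 1.49 in selection population 3. It was 0.66 in control population 1, 1.36 in control population 2 and -0.28 in control population 3. The day-1 heads of control population 1 stood in between and those of control population 3 stood opposite. Without the heads apart the median gain was 1.70 in selection population 3 and 1.54 in control population 2. A gain of at least 1 was found in 243, 236 and 228 members in selection populations 1, 2 and 3, against 76, 222 and 5 in control populations 1, 2 and 3. Leaving out the heads apart made it 246 members in selection population 3 and 246 in control population 2. In all 3 selection populations and control population 2 together, 170 members gained at least 1. In abdomens the median gain was 0.24, 0.26 and 0.33 in selection populations 1, 2 and 3, against -0.13, 0.24 and 0.29 in control populations 1, 2 and 3.

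**Figure D4:**
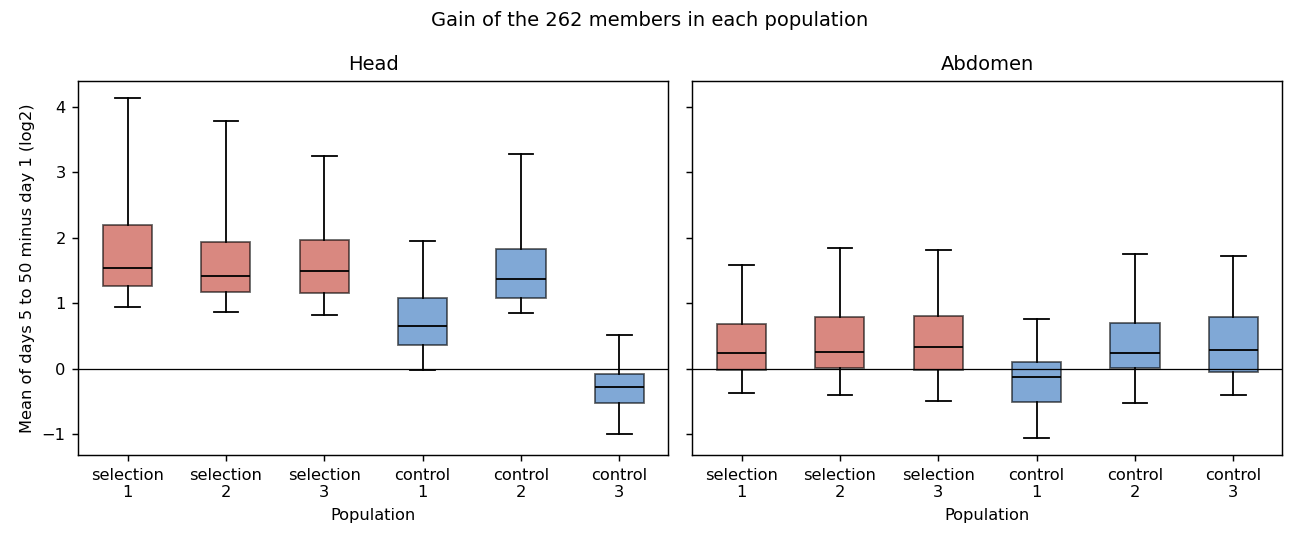
Gain of the 262 members (mean of days 5 to 50 minus day 1, log2) in each population, selection left of control, with the box from the lower to the upper quartile, the line at the median and whiskers from the 5th to the 95th percentile. Head medians lie at 1.42 to 1.54 in the selection populations and at 0.66, 1.36 and -0.28 in control populations 1, 2 and 3.

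Whether selection changed the size of the gain was fitted over the 6 populations with limma. The rule chose the members on the gain pooled over both regimes in these same arrays, so the counts and directions below are a description of the members and support nothing about them. No member was called at an adjusted p of 0.05 in heads, nor was any of the 16637 transcripts (0%), and 75 members had an unadjusted p under 0.05 (28.6%, against 9.93% of all transcripts). When the heads apart were left out, 25 members did (9.54% against 3.64%). The difference in gain, selection minus control, was above 0 in 259 members (98.9%, against 50.1% of all transcripts). Its median was 0.91, against 0.00 over all transcripts. Without the heads apart, which leaves control population 3 with no day-1 head, the median was 0.50. It was 0.03 when both day-1 heads of control population 1 were left out too, a setting chosen after seeing the data. Control population 2 is then the only control population. The 0.03 thus has no spread between controls and cannot show whether the regimes differ. FBtr0088432 had the smallest p of the members with a larger gain in selection, with gains of 2.09, 2.16 and 1.79 in selection populations 1, 2 and 3 and of -2.12, 0.45 and -0.22 in control populations 1, 2 and 3, a difference of 2.64 (SE 0.59, limma adjusted p = 0.491). FBtr0077300 had the smallest p the other way, with gains of -1.52, 0.26 and 0.77 in selection populations 1, 2 and 3 and of 2.54, 1.85 and 1.09 in control populations 1, 2 and 3, a difference of -1.99 (SE 0.62, limma adjusted p = 0.491). Neither difference passed the test.

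In abdomens no member and no transcript was called for a difference in gain (0%), with 14 members at an unadjusted p under 0.05 by limma (5.34%, against 3.54% of all transcripts). The median difference was 0.18, and 207 members were above 0 (79.0%, against 48.4% of all transcripts). It was 0.00 without both day-1 abdomens of control population 1, again a setting chosen after seeing the data. The values with the smallest p were 0.79 for FBtr0100020 and -0.51 for FBtr0087559 (SE 0.14 and 0.17, limma adjusted p = 1.00 for both). As in heads, the size of the regime difference over the members moved with the day-1 arrays of control population 1.

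Levels on days 5 to 50 were compared between regimes over population means. In heads limma called no member and no transcript (0%), and 27 members had an unadjusted p under 0.05 (10.3%, against 21.2% of all transcripts). It again called none without the heads apart, and 52 members had an unadjusted p under 0.05 (19.8% against 19.3%). The median difference over the members was 0.02, and -0.06 without the heads apart. FBtr0072704 had the smallest p among members higher in selection, with 12.71, 13.15 and 12.46 in selection populations 1, 2 and 3 and 12.26, 11.80 and 11.67 in control populations 1, 2 and 3. The populations did not overlap, and the difference of 0.86 (SE 0.20, limma adjusted p = 0.143) did not pass. For FBtr0112769, with the smallest p the other way, the means were 10.43 ± 0.23 in selection and 11.01 ± 0.20 in control (SD, n = 3 populations each), a difference of -0.58 (SE 0.15, limma adjusted p = 0.143). In abdomens limma also called no member and no transcript (0%), with 10 members at an unadjusted p under 0.05 (3.82%, against 1.14% of all transcripts). The smallest p each way belonged to FBtr0087653 with 0.58 and FBtr0088864 with -0.28 (SE 0.14 each, limma adjusted p = 1.00 for both).

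After day 5 some members went on rising in the head. Between day 5 and day 50, 20 of the 262 members were called by limma at an adjusted p of 0.05 over all transcripts (7.63%), 18 higher and 2 lower on day 50, against 2.15% of all transcripts. The share called higher was 6.87% of the members against 1.25% of all transcripts, and the share called lower was 0.763% against 0.902%. The rule pooled these same later arrays, and a transcript that rises after day 5 can pass it for that reason, so the larger share of rising members is not independent of how they were chosen. Of the 20 called members, 18 moved the same way in all 6 populations, and 18 changed at least 2-fold. Without the heads apart 62 members (23.7%) were called, 55 higher against 2.93% of all transcripts and 7 lower against 2.72%, and they included all 20. The heads apart include later heads set apart for low member means. Leaving them out favours a rise of the members, so the larger count is no support for one. Leaving out control population 1 gave 10 called members, leaving out selection population 3 gave 12, and leaving out selection population 2 gave 13. The median change over the members was 0.06 with all arrays and 0.18 without the heads apart.

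The largest rise with all arrays, and the next, belonged to members with far higher levels in the abdomen, while the rises that followed, 2.38 for FBtr0100558 and 2.19 for FBtr0087436, belonged to members higher in head by 0.48 and 1.87. FBtr0077086 had 7.80, 11.05 and 11.78 in the 12 heads of day 50 at the lowest, median and highest, against 7.63, 7.92 and 9.82 in the 12 heads of day 5. Its change was 2.76 (SE 0.29, limma adjusted p = 3.36e-05), with 3.57, 3.42 and 2.84 in selection populations 1, 2 and 3 and 2.51, 1.17 and 3.07 in control populations 1, 2 and 3. The heads of both days overlapped between arrays, but all 6 populations rose. Without the heads apart, a setting that favours a rise of the members, the change was 2.97 (SE 0.19, limma adjusted p = 9.17e-09). In abdomens its mean was 10.29 ± 1.75 on day 1, 12.72 ± 0.22 on day 5, 12.70 ± 0.39 on day 15, 12.97 ± 0.35 on day 30 and 13.09 ± 0.28 on day 50 (SD, n = 6 populations each), so the abdominal gain came before day 5 and the head rise after it.

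FBtr0091873 behaved alike, with 9.10, 11.28 and 12.20 in the heads of day 50, against 8.13, 8.46 and 10.23 on day 5. Its change was 2.46 (SE 0.27, limma adjusted p = 3.48e-05), higher in 6 of 6 populations, and 2.71 without the heads apart. Its head means were 8.85 ± 0.76, 8.67 ± 0.38, 9.08 ± 0.49, 9.96 ± 0.73 and 11.13 ± 0.39 on days 1, 5, 15, 30 and 50 (SD, n = 6 populations each). This member was no higher on day 5 than on day 1, and its higher head levels came on days 30 and 50. In abdomens it had 13.81 ± 0.42 on day 5, against 9.92 ± 0.62 on day 1, and its later change there was 0.16 (SE 0.16, limma adjusted p = 0.889).

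The 2 members called lower had lower head levels on day 50 than on day 5. FBtr0114503 had 8.44, 9.12 and 10.27 in the heads of day 50, against 10.36, 11.02 and 12.21 on day 5, a change of -1.94 (SE 0.18, limma adjusted p = 1.54e-05) seen in 6 of 6 populations. No day-50 head reached the lowest day-5 head. Its head mean was 9.66 ± 0.48 on day 1, 11.10 ± 0.42 on day 5, 11.09 ± 0.48 on day 15, 9.98 ± 0.36 on day 30 and 9.16 ± 0.29 on day 50 (SD, n = 6 populations each), so by day 50 it was under its day-1 mean. That day-1 mean includes both day-1 heads of control population 3, which are heads apart, and a value without them is not given. FBtr0112501 had 8.66, 10.17 and 11.77 in the heads of day 50, against 10.67, 12.00 and 12.95 on day 5, a change of -1.77 (SE 0.38, limma adjusted p = 0.0190) in 6 of 6 populations. Its call ended when selection population 1, selection population 3, control population 2 or control population 3 was left out, with changes of -1.53 to -1.76.

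Between day 5 and day 15 no member was called in heads by limma, against 0.0601% of all transcripts, and 26 members had an unadjusted p under 0.05 (9.92%, against 6.80% of all transcripts). Of the 262, 195 were higher on day 15 (74.4%, against 52.2% of all transcripts), with a median change of 0.13 against 0.01. The rule pooled the day-15 heads too, so the shares in this comparison are not independent of how the members were chosen. Without the heads apart, 5 members were called, all higher, against 0.0601% of all transcripts higher and 0.258% lower. FBtr0081829 had the smallest p, with 9.29, 11.37 and 12.45 in the heads of day 15, against 8.43, 8.97 and 10.98 on day 5, and all 6 populations rose by 0.50 to 3.27. Its change of 1.83 (SE 0.37, limma adjusted p = 0.109) did not pass, and it was called when control population 1 was left out, at 2.23 (limma adjusted p = 0.0266). FBtr0085172 had the smallest p among members lower on day 15, with a change of -0.56 (SE 0.36, limma adjusted p = 0.816).

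In abdomens 12 members were called between day 5 and day 50 (4.58% against 1.11% of all transcripts). Of these, 10 were higher (3.82% against 0.577%) and 2 lower (0.763% against 0.535%), and all 12 moved the same way in 6 of 6 populations. The count was 3 without selection population 3 and 3 without control population 3. The rule pooled these later abdomens too and left out transcripts that fell there, so the shares called are not independent of how the members were chosen. FBtr0087436 had 9.31, 12.08 and 15.26 in the abdomens of day 50, against 8.83, 9.18 and 9.35 on day 5, a change of 2.69 (SE 0.52, limma adjusted p = 0.0137). FBtr0087653 had 10.30, 12.11 and 14.85 on day 50, against 8.86, 9.82 and 10.56 on day 5, a change of 2.33 (SE 0.51, limma adjusted p = 0.0304). Both varied widely at day 50: the rise of FBtr0087653 was 1.56, 2.31 and 4.97 in selection populations 1, 2 and 3 and 0.42, 2.41 and 2.31 in control populations 1, 2 and 3. The call of FBtr0087436 ended without selection population 3, control population 2 or control population 3, with values of 2.27 to 2.61. That of FBtr0087653 ended without any of these 3, selection population 2 or control population 1, with values of 1.83 to 2.65.

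The 2 members called lower in abdomens, FBtr0111187 and FBtr0111188, have consecutive numbers. FBtr0111187 had 9.94, 10.50 and 11.80 in the abdomens of day 50, against 11.50, 11.77 and 12.14 on day 5, a change of -1.12 (SE 0.16, limma adjusted p = 0.00150). FBtr0111188 had 9.75, 9.95 and 11.50 on day 50, against 9.73, 11.40 and 11.94 on day 5, a change of -1.13 (SE 0.19, limma adjusted p = 0.00604), and its call ended without selection population 3, at -0.99. In both, the abdominal mean was already low on day 15, at 10.81 ± 0.37 for FBtr0111187 and 10.22 ± 0.38 for FBtr0111188 (SD, n = 6 populations each). Their head changes, -0.38 for FBtr0111187 and -0.29 for FBtr0111188, were not called (limma adjusted p = 0.640 and 0.836). Of all members, 35 had a number next to that of another member, in 17 runs of at most 3, so members are not all independent measurements.

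Members called in both tissues numbered 4, which is 20% of the head calls and 33.3% of the abdomen calls, and all 4 rose in both. Over all transcripts 30 were called in both tissues, 8.38% of the head calls and 16.2% of the abdomen calls, so 1.53% of the members and 0.180% of all transcripts were called in both. One of them was FBtr0087436, with 2.19 in head (SE 0.55, limma adjusted p = 0.0471) and 2.69 in abdomen. Another was FBtr0087559, with 1.62 in head (SE 0.34, limma adjusted p = 0.0165) and 1.47 in abdomen (SE 0.32, limma adjusted p = 0.0293). The other 2, named after their values were seen because so few were called, were FBtr0100057 with 2.00 in head and 0.60 in abdomen and FBtr0071928 with 0.85 in head and 0.81 in abdomen. Leaving out the heads apart, 7 members were called in both (2.67%, against 0.319% of all transcripts). The calls in head and in abdomen are not independent of the rule, so neither are these shares.

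**Figure D5:**
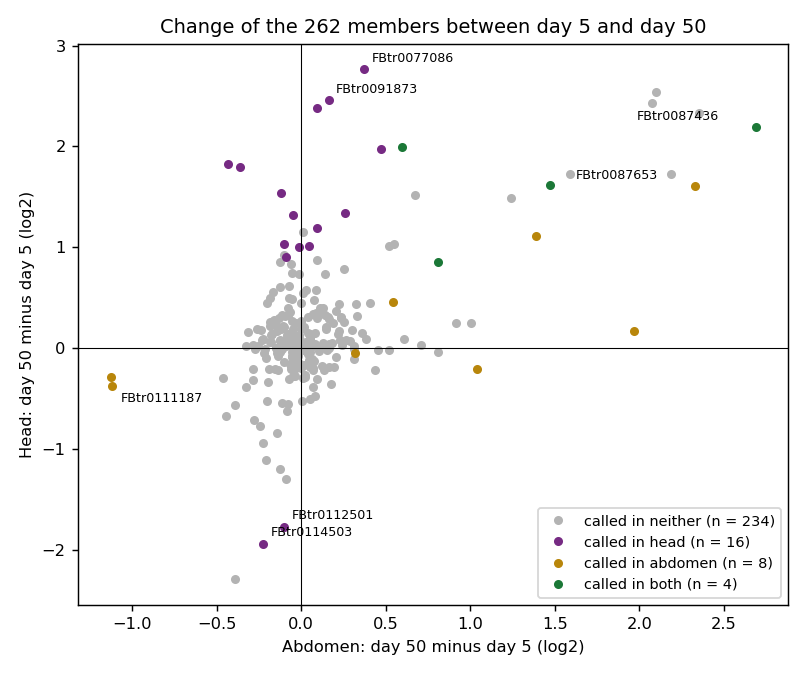
Change between day 5 and day 50 (day 50 minus day 5, log2) in head against that in abdomen for the 262 members, coloured by the tissues in which limma called them. Head calls lie along the vertical axis, with FBtr0077086 at 2.76 and FBtr0114503 at -1.94, and the 4 members called in both tissues lie in the upper right.

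The difference between the tissues in this change was tested directly. With 1 head minus abdomen difference for each population, limma called no member and no transcript (0%), the smallest adjusted p was 0.185, and 60 members had an unadjusted p under 0.05 (22.9%, against 11.2% of all transcripts). It again called none without the heads apart, with 82 members at an unadjusted p under 0.05 (31.3% against 14.2%). A fit over the differences of days 5 to 50, added after seeing the data because it leaves more degrees of freedom, called 16 members, 13 higher and 3 lower in head (6.11% against 1.54% of all transcripts). The same fit called 36 without the heads apart (13.7% against 2.81%). Here too the rule pooled the same later heads, so these shares are not independent of how the members were chosen. FBtr0071862 had head minus abdomen changes of 1.21, 1.05 and 1.21 in selection populations 1, 2 and 3 and of 1.05, 1.18 and 0.76 in control populations 1, 2 and 3, with a mean of 1.08 (limma adjusted p = 0.185, 0.0242 in the added fit, and 0.00770 at 1.19 in that fit without the heads apart). Its head level was 11.20, 11.86 and 12.57 on day 50, against 9.85, 10.48 and 11.55 on day 5, while in abdomens it was 13.09, 13.59 and 14.43 on day 50, against 12.71, 13.34 and 13.62 on day 5. FBtr0084810 moved the other way, with -1.25 (limma adjusted p = 0.185, 0.0638 in the added fit, and 0.00724 at -1.12 in that fit without the heads apart), since its abdominal mean was 10.66 ± 0.38 on day 50, against 9.62 ± 0.27 on day 5 (SD, n = 6 populations each), while its head change was -0.21 (limma adjusted p = 0.910).

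Selection and control were also compared in the head change from day 5 to day 50. Limma called no member and no transcript (0%), with 4 members at an unadjusted p under 0.05 (1.53%, against 1.09% of all transcripts). The difference, selection minus control, was above 0 in 229 members (87.4%, against 46.2% of all transcripts). Its median was 0.31, against -0.02 over all transcripts, and 0.09 against -0.02 without the heads apart. Members rose and fell together in these heads, so their directions are not independent of each other. The day-50 head with a day-1-like member mean of 10.30 came from control population 2, on the control side of this comparison. FBtr0087653 had the smallest p, with changes of 2.87 ± 1.55 in selection and 0.34 ± 1.61 in control (SD, n = 3 populations each) and a difference of 2.53 (SE 0.95, limma adjusted p = 1.00). Its changes were 1.46, -1.51 and 1.07 in control populations 1, 2 and 3. Without the heads apart its difference was 1.90 (SE 0.82, limma adjusted p = 0.999). FBtr0078655 then had the smallest p, at 4.18 (SE 1.33, limma adjusted p = 0.999). With all arrays FBtr0114503 had the smallest p the other way, with changes of -2.30 ± 0.58 in selection and -1.58 ± 0.39 in control (SD, n = 3 populations each) and a difference of -0.72 (SE 0.37, limma adjusted p = 1.00).

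Once gained, many members had higher log2 intensities in the head than in the abdomen. The rule used levels in both tissues, so this is a description with no test. On days 5 to 50 the array medians over all transcripts had a median of 9.91 in heads and 10.35 in abdomens. The head minus abdomen difference had a median of -0.25 over all transcripts. Whether both tissues share a scale is not known, and the counts below would shift with an offset between them. Averaged over days 5 to 50, 94 members (35.9%) were at least 2-fold higher in head than in abdomen, against 11.9% of all transcripts, and 70 (26.7%) were at least 2-fold lower, against 24.9%. Leaving out the heads apart, 97 members were higher, against 11.9% of all transcripts, and 66 lower, against 24.7%. On day 1, 40 members (15.3%) were 2-fold higher in head, against 7.24% of all transcripts, and 117 (44.7%) were 2-fold lower, against 17.9%. In the class with a flat abdomen 77 of 182 were 2-fold higher in head on days 5 to 50 and 30 were lower, while among the 37 gained in both tissues 9 were higher and 18 were lower.

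The most head-biased members were FBtr0076421 and FBtr0085988, 6.31 and 6.07 higher in head on the log2 scale. FBtr0076421 had 13.77, 14.71 and 15.05 in the 45 later heads, and 7.70, 7.97 and 12.09 in the 48 later abdomens. It was already high in heads on day 1, at 11.98, 13.16 and 14.82. FBtr0085988 had 12.60, 14.56 and 15.03 in the 45 later heads, against 10.00, 10.61 and 14.49 in the 12 day-1 heads, and 7.87, 8.06 and 10.87 in the later abdomens. The highest abdominal value of both came from 1 array, the day-5 abdomen of control population 3 used as biological replicate 1. Over the 15 members at least 4 higher in head on the log2 scale, this array had a mean of 9.48, against 8.17, 8.28 and 8.95 at the lowest, median and highest of the other 47 later abdomens. Why it stood high was not tested, and without it, a setting added after seeing the data, the same 12 members were called between day 5 and day 50 in abdomens.

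At the other end, the head minus abdomen difference over days 5 to 50 was -4.28 for FBtr0091873 and -3.90 for FBtr0080855. FBtr0080855 had 8.34, 9.62 and 10.15 in the 45 later heads, against 8.25, 8.50 and 9.58 in the 12 day-1 heads. In abdomens it had 12.59, 13.38 and 13.94 in the 48 later arrays, against 9.90, 10.41 and 11.52 on day 1. Its abdominal levels before and after did not overlap, while its head levels did.

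Across the later heads the members rose and fell together mainly through the heads apart. The mean correlation over all pairs of members was 0.526 across all 48 later heads and 0.129 across the 45 others, while over all transcripts it was 0.0048 and 0.0037. Across the 48 later abdomens it was 0.0507 for the members and 0.0015 for all transcripts. The rule chose transcripts that all stood higher in these same heads than on day 1. Heads with day-1-like values therefore lower the members together by that choice, and all transcripts, which were not so chosen, are no like baseline. These correlations also share arrays and populations and are given as a description that supports nothing about the members.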

How the data were processed

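The authors deposited 1 log2 intensity per transcript and array, made with RMA per the submitters' processing notes. Which arrays entered 1 RMA run, its version, the build and the annotation used are not given in the sources used. Nothing was renormalized. The members and the lists were chosen with earlier results of these data known.

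Populations served as replicates, after averaging the biological replicates within population and day. Changes between days were fitted over the 24 averages of days 5 to 50 of a tissue with population, day and regime by day (12 residual degrees of freedom). Regime and tissue comparisons used 1 value per population. limma 3.58.1 in R 4.3.3 was used with an intensity trend, two-sided, with Benjamini-Hochberg adjustment over 16637 transcripts. A run on simulated arrays was required only to return planted changes near their size. Its spread came from biological replicates within population and day, with no differences between populations, so it cannot gauge the calls given here. Text names up to 2 members each way per comparison, the largest changes among those called and moving the same way in every population, or else the smallest p. The members with the largest differences between ages or tissues are named too.

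The labels describe selection and control populations as pairs. The deviations of same-numbered populations from their regime means had correlations of 0.362, 0.174 and 0.517 in heads and 0.014, 0.260 and 0.526 in abdomens, for numbers 1, 2 and 3. Precision is limited by the number of arrays, which have no read depth.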

Additional observations from a re-analysis of the deposited data

Results flagged for a closer look

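In 32 groups of 6 arrays or changes of 6 populations, the highest or lowest value was set against the other 5, and chance marks about 1 in 20 such groups. In 4 groups 1 array's mean over the members lay far from the rest. These were the day-30 head of selection population 3, biological replicate 2, at 9.8842, the day-30 head of control population 3, biological replicate 1, at 9.6285, the day-50 head of control population 2, biological replicate 1, at 10.3025, and the day-50 abdomen of control population 3, biological replicate 1, at 11.7164. The first 3 are the later heads apart. The head minus abdomen change of FBtr0071862 in control population 3, 0.7598, lay below the other 5 populations.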

How the results depend on the processing

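Of 143 counts recomputed under other settings, 126 stayed within 1.5 times the reported count and 17 did not. Of 310 values of named members, 279 kept their direction and side of the threshold, 24 lost their call, 6 gained one and 1 changed sign. The number of members was 138 with means over arrays in place of medians (134 of them shared) and 92 with a head limit of 1.5, and it was 371 without the heads apart, including all 262. The head change between day 5 and day 50 was called in 13 members among transcripts of above-median signal, in 3 with biological replicate 1 alone, in 62 without the heads apart, and in 10 to 22 with 1 population left out. For day 15 against day 5 the count was 5 without the heads apart and 0 to 1 with 1 population left out. In abdomens it was 4 with biological replicate 1 alone, 3 with biological replicate 2 alone and 3 to 12 with 1 population left out. The tissue difference was called in 19 members with no intensity trend, in 16 in the added fit and in 36 in that fit without the heads apart. The regime difference in the head change of FBtr0114503 was 0.0346 with biological replicate 2 alone. Fewer samples or transcripts entered several of these settings, and other causes were not tested. With the replicate block, which pairs same-numbered populations, 0 members were called for the regime, gain and tissue comparisons, and it changed no call. Signal over background is not known from these values.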
